A study of Mus musculus with 136 samples.

Results

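Counts of 7 genes of the Pax family, Pax1, Pax2, Pax3, Pax6, Pax7, Pax8 and Pax9, were followed in mouse embryos from diabetic and normoglycemic pregnancies and in the yolk sacs paired with them by label. The genes were taken by their symbols, each symbol stood for 1 row, and the table held 47643 genes in all. Of the 7 genes, 6 passed the filter on low counts over all embryos, and Pax1 did not. Pax4 and Pax5, the remaining mammalian Pax genes, were not among them.

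Pax genes encode transcription factors that bind DNA through the paired domain, and some members carry a homeodomain as a second DNA-binding part. They act early in regions of the embryo, and relatives of one subgroup often share an expression site. Pax3 and Pax7 mark the dorsal neural tube, the neural crest and the dorsal somite. Pax6 is a regulator of eye and forebrain and of progenitors in the neural tube. Pax2 and Pax8 act in the midbrain-hindbrain region, the otic placode and the kidney, and Pax8 also in the thyroid. Pax1 and Pax9, which lack a homeodomain, act in the sclerotome and the pharyngeal pouches. Mice without functional Pax3 have open neural tubes, and low Pax3 expression has been tied to neural tube defects in other mouse models of diabetic pregnancy, which is why the gene is looked at first here.

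Concepti were of the NOD (non-obese diabetic) strain, an inbred mouse line in which some females become diabetic through autoimmune loss of insulin-producing cells. Diabetic dams had been mated with normoglycemic NOD males, both conditions were on the same chow, and no transgene or drug was involved. Tissue was collected at E8.5, when the neural folds are still closing, and each embryo was staged by its pairs of somites, the blocks of paraxial mesoderm laid down one after another. At 5–6 somite pairs there were 17 embryos of 10 normal litters and 17 embryos of 9 diabetic litters, and at 7–9 somite pairs 16 embryos of 7 normal litters and 16 embryos of 6 diabetic litters. Every embryo was paired by its label with a visceral yolk sac, an extraembryonic tissue of endoderm and mesoderm that feeds the embryo at this age. Maternal glucose was 105 to 164 mg/dl in the 10 normal dams and 423 to 595 mg/dl in 11 of the 12 diabetic dams, and the label of the remaining diabetic dam gave only a lower bound. The dam is the unit exposed to diabetes, embryos of a litter share a dam, and 1 diabetic litter (D24M15) gave 7 of the 16 diabetic embryos with 7–9 somite pairs. Diabetes in the NOD strain comes with autoimmunity, so that high glucose and the other features of the disease cannot be told apart.

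The 132 libraries held between 1017901 and 5658850 counts of molecules, with a median of 2302819. No library went against its sex label by Xist and Y-linked counts. In 2 concepti, D28M27C and N28M07E, the embryo and the yolk sac carried different sex labels, and the counts bore both labels out. The 2 libraries of such a pair differ in sex, so these 2 pairings by label are in doubt, and they were kept among the pairs. All 5 neural plate markers, all 5 paraxial mesoderm markers and all 5 heart markers were found in each embryo group. Of the 5 trophoblast and decidua markers, Prl3d1 and Prl2c2 were at 0 in every embryo group. The others, Dcn, Prl8a2 and Tpbpa, were counted 871, 77 and 27 times over all embryos. In these 3′ libraries each molecule gives 1 tag whatever its length, so that counts of different genes can be set side by side. Values are normalized counts, that is, counts divided by a size factor for the library.

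The 7 genes lie at separate places of the mouse genome (GRCm38). Pax3 (ENSMUSG00000004872) is at chr1:78101267-78197134 on the minus strand and Pax7 (ENSMUSG00000028736) at chr4:139737062-139833528 on the minus strand. No other annotated gene overlaps either of them. Pax6 (ENSMUSG00000027168) is at chr2:105668900-105697364 on the plus strand, and the antisense RNA Pax6os1 overlaps it. Pax2 (ENSMUSG00000004231) is at chr19:44756045-44837871 on the plus strand and Pax8 (ENSMUSG00000026976) at chr2:24420560-24475599 on the minus strand. Pax1 (ENSMUSG00000037034) is at chr2:147361925-147393295 on the plus strand, and Pax9 (ENSMUSG00000001497) at chr12:56691767-56712822, also on the plus strand. Noncoding genes overlap Pax1, Pax2 and Pax8. The last 500 bases of Pax9, where 3′ tags fall, are overlapped by Slc25a21 on the opposite strand, and the counting mode for strand is not given in the sources used here, so counts of Pax9 are the least certain of the 7.

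The first question was where the genes were expressed. All 7 were genes of the embryo proper, with at most a few molecules in the yolk sac. Pax6 was counted 9146 times over the 66 embryos and 38 times over the 66 yolk sacs, and as a share of the library total the yolk sac level was 0.438% of the embryo level. For Pax7 that share was 0.514%, for Pax1 0.727% and for Pax2 1.18%.

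Pax3 was the member most often seen in the yolk sac. It was counted in 63 of 66 yolk sac libraries, with 9 counts at most and 189 in all, against 8722 counts in the embryos, and its yolk sac level was 2.29% of the embryo level. Pax9 reached 2.59% and Pax8 3.55%, with no yolk sac above 3 counts, and the count of Pax8 in the embryos was itself low. The 5 neural plate markers stood at 0.353% to 18.7% of their embryo level in the yolk sacs, with a median of 2.09%, and the 5 paraxial mesoderm markers at 0% to 5.05%, with a median of 1.31%. Carry-over of embryo tissue as a source of these counts was not tested.

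In edgeR's quasi-likelihood test, 79.1% of 11677 genes at 5–6 somite pairs and 81.2% of 11577 genes at 7–9 somite pairs differed between embryo and yolk sac. All 5 members that passed the filter were higher in the embryo at both stages, as were 39.7% and 42.6% of all genes tested. With at most 9 counts in a yolk sac, these members could pass the filter only through the embryo libraries. Their direction was thus set by the filter, and the fold changes and p-values below add no support beyond the counts. For Pax3 the log2 fold change was 5.11 ± 0.15 (SE, 34 pairs, adjusted p = 3.1e-45) at the earlier stage and 5.34 ± 0.13 (32 pairs, adjusted p = 2.8e-47) at the later one. Pax6 had the largest difference of the 5, at 6.89 ± 0.19 and 7.89 ± 0.19. Pax7 followed with 6.53 ± 0.22 and 7.01 ± 0.24, then Pax2 with 5.35 ± 0.26 and 6.02 ± 0.26, and Pax9 with 4.74 ± 0.22 and 4.88 ± 0.28. In the yolk sacs no member passed the filter. Fitted without it, 0 of 7 members passed between diabetic and normal yolk sacs at either stage, on few counts. For Pax3 the log2 fold change was 0.07 at 5–6 (adjusted p = 0.97) and -0.0058 at 7–9 somite pairs (adjusted p = 1.0), and the members with the lowest unadjusted p were Pax7 at the earlier stage (log2 fold change 1.41, unadjusted p = 0.040, adjusted p = 0.63) and Pax6 at the later one (-1.26, unadjusted p = 0.047, adjusted p = 0.56). Without the filter, edgeR called 0% of 26858 genes between diabetic and normal yolk sacs at 5–6 somite pairs and 0.101% of 24871 genes at 7–9. With it, 0% of 10250 genes were called at 5–6 somite pairs, with 863 at an unadjusted p under 0.05, and 0.0194% of 10317 genes at 7–9.

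**Figure D1:**
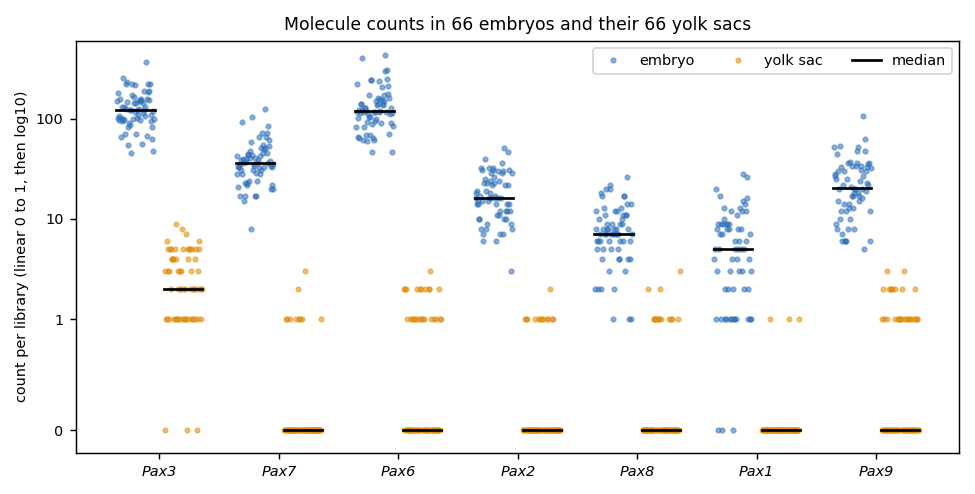
Counts of molecules per library for the 7 Pax genes, with embryos in blue and yolk sacs in orange. Each dot is 1 of 66 libraries per tissue, black lines are medians, and the axis is linear from 0 to 1 and log10 above. Every embryo had more Pax3, Pax6, Pax7, Pax2 and Pax9 counts than the yolk sac paired with it by label, and the Pax3 counts of yolk sacs ended at 9.

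In the embryos, Pax6 and Pax3 were the most abundant members, at 130 ± 47.5 and 123 ± 30.2 normalized counts (SD, n = 66). Pax7 followed with 37.6 ± 12.7, and Pax3 was above it in 66 of 66 embryos. Pax9 stood at 22.1 ± 10.03, Pax2 at 17.8 ± 7.29, Pax8 at 8.13 ± 4.59 and Pax1 at 5.95 ± 4.59.

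Neighbours in this order overlapped. Pax6 was above Pax3 in 42 of 66 embryos, Pax9 above Pax2 in 40 and Pax8 above Pax1 in 41, and in each of these pairs the difference of the means was within 1 SD. Pax7 was above Pax9 in 53 of 66 embryos and Pax2 above Pax8 in 55.

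The order of Pax3 and Pax6 was not the same in the 4 groups. The ratio of Pax6 to Pax3 within an embryo, which no scaling of libraries can change, had a median of 1.12 (0.645 to 1.65) in normal and of 0.613 (0.329 to 1.24) in diabetic embryos with 5–6 somite pairs. At 7–9 somite pairs the medians were 1.22 (0.732 to 1.94) and 1.18 (0.985 to 1.57). Pax3 was above Pax6 in 14 of 17 diabetic embryos at the earlier stage, against 7 of 17 normal ones, and in 1 of 16 diabetic and 2 of 16 normal embryos at the later stage. The ratio was looked at after its values had been seen and was not tested.

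**Figure D2:**
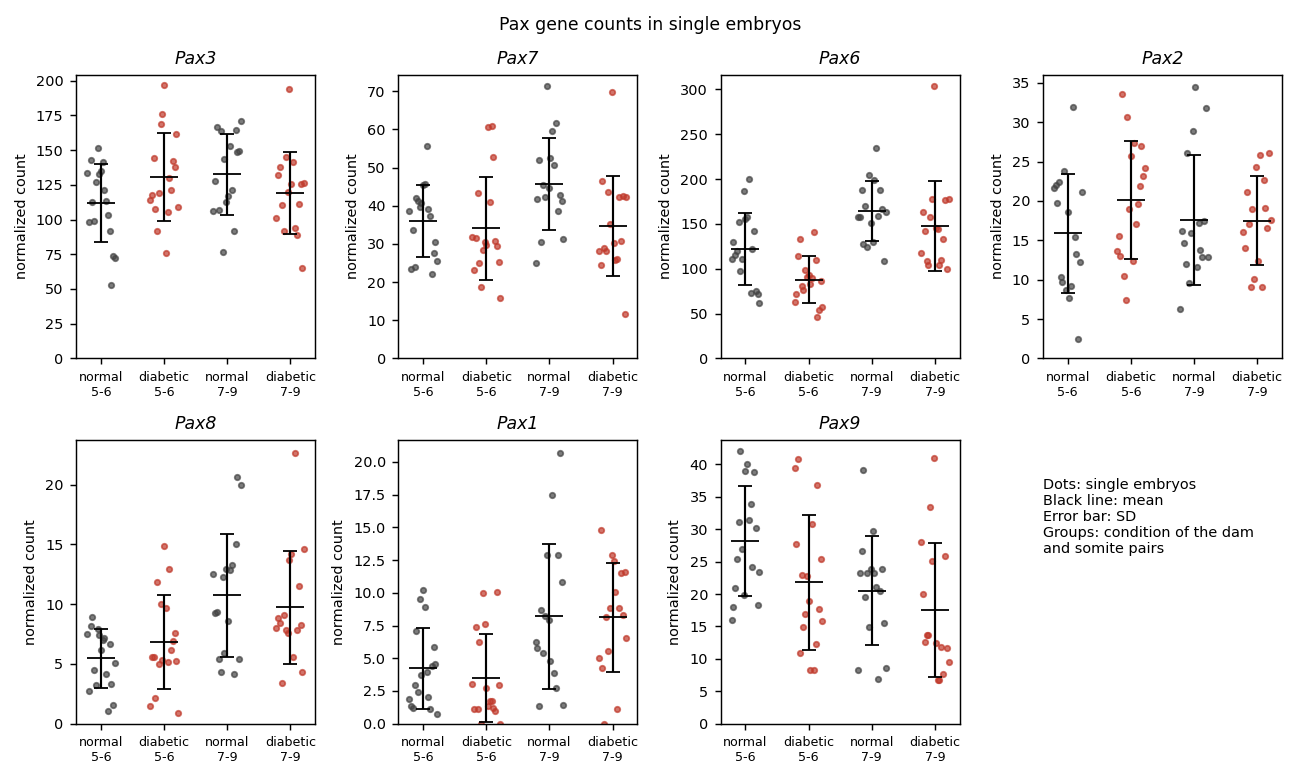
Normalized counts of the 7 Pax genes in single embryos, by condition of the dam (normal grey, diabetic red) and somite pairs, with the mean and SD in black. The groups of every gene overlap, and the Pax6 values of diabetic embryos with 5–6 somite pairs lie lowest of its 4 groups.

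Whether maternal diabetes went with other Pax levels was asked at each stage. Between diabetic and normal embryos, 1.46% of 11004 genes passed an adjusted p of 0.05 at 5–6 somite pairs and 9.09% of 10628 genes at 7–9. Of the 5 members tested at each stage, 0 passed. With both stages in a single fit and the stage as a covariate, 3.98% of 11304 genes passed, and 0 of 6 members did. At an unadjusted p under 0.05 there were 2 members at the earlier stage (Pax6 and Pax9), 1 at the later stage (Pax7) and 3 over both (Pax6, Pax7 and Pax9), each lower in diabetic embryos, against 21%, 27.4% and 19.6% of all genes tested.

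Pax3, the regulator of neural tube closure and neural crest, ran from 52.9 to 151 normalized counts with a median of 113 in the 17 normal embryos with 5–6 somite pairs. In the 17 diabetic embryos of that stage it ran from 75.7 to 197 with a median of 122. The groups overlapped over most of their range, and 5 of 17 diabetic embryos were below the normal median. The log2 fold change was 0.21 ± 0.12 (SE), with a 95% confidence interval of -0.03 to 0.46 (edgeR, adjusted p = 0.31).

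In the later group Pax3 ran from 76.6 to 171 with a median of 136 in the 16 normal embryos and from 65.3 to 194 with a median of 122 in the 16 diabetic embryos. Here 12 of 16 diabetic embryos were below the normal median. The log2 fold change was -0.15 ± 0.12 with an interval of -0.39 to 0.09 (adjusted p = 0.41). Over both stages it was 0.04 ± 0.09, with an interval of -0.13 to 0.22 (adjusted p = 0.84). Left without the litter D24M15, the value at 7–9 somite pairs was -0.28 (unadjusted p = 0.047, adjusted p = 0.17).

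Whether the difference between conditions itself changed from one stage to the other was tested as an interaction. It passed for 8.7% of 11304 genes and for 0 of 6 members. For Pax3 it was -0.35 ± 0.17 on the log2 scale (unadjusted p = 0.043, adjusted p = 0.16), so that the opposite signs at the 2 stages did not pass. For Pax6 it was 0.35 ± 0.20 (adjusted p = 0.24). With the somite number in place of the stage, the interaction passed for 1.81% of genes and for 0 of 6 members.

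Pax7, the close relative of Pax3 in dorsal neural tube and somite, ran from 22.1 to 55.7 with a median of 38.6 in normal and from 15.8 to 61.0 with a median of 30.4 in diabetic embryos at 5–6 somite pairs. The log2 fold change was -0.10 ± 0.16 (adjusted p = 0.74). With 7–9 somite pairs, Pax7 in the normal embryos ran from 25.03 to 71.4 with a median of 43.8 and the diabetic ones from 11.6 to 69.9 with a median of 30.4. Of the diabetic embryos, 14 of 16 were below the normal median, and 1 of 16 normal embryos was below the diabetic median. The log2 fold change was -0.38 ± 0.16, with an interval of -0.70 to -0.06, an unadjusted p of 0.02 and an adjusted p of 0.11. With each of 13 litters left out in turn it was -0.53 to -0.29 (adjusted p = 0.054 to 0.27), and the -0.53 was that without D24M15.

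Pax6, the eye and neural progenitor regulator, had the lowest adjusted p of the members at 5–6 somite pairs and over both stages. At 5–6 somite pairs it ran from 62.0 to 200.5 with a median of 119 in normal embryos and from 46.7 to 141 with a median of 86.6 in diabetic embryos. Of the diabetic embryos, 15 of 17 were below the normal median. The log2 fold change was -0.49 ± 0.15, with an interval of -0.79 to -0.18 and an adjusted p of 0.077. With somite number and sex as covariates it was -0.48 (adjusted p = 0.11), the group of normal embryos holding 11 with 5 and 6 with 6 somite pairs and the diabetic group 13 and 4. Without the normal litter N28M06, which gave 4 of the 17 normal embryos, it was -0.28 (adjusted p = 0.41). DESeq2 called it (adjusted p = 0.047), and so did edgeR without the litter D28M37 (-0.58, adjusted p = 0.033) or N28M30 (-0.57, adjusted p = 0.043). Over the 11 alternatives that kept every litter or dropped only concepti of mixed sex labels, it was -0.51 to -0.26 (adjusted p = 0.022 to 0.60). Fits that model the litter were among them.

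Among embryos with 7–9 somite pairs, Pax6 ran from 109 to 235 with a median of 161 in normal embryos and from 100.2 to 304 with a median of 143 in diabetic embryos, and the log2 fold change was -0.15 ± 0.13 (adjusted p = 0.45). The highest diabetic value belonged to an embryo of D24M15 with 8 somite pairs, which was also the highest of its group for Pax3, Pax7 and Pax9. Over both stages the log2 fold change was -0.32 ± 0.10, with an interval of -0.52 to -0.12 and an adjusted p of 0.056. Under the same 11 alternatives it was -0.34 to -0.26 (adjusted p = 0.036 to 0.45). The summed level of the 5 neural plate markers also had a lower median in diabetic embryos at both stages. At 5–6 somite pairs the medians were 1128 in normal and 939 in diabetic embryos (673 to 1636 and 447 to 1250). At 7–9 they were 1148 and 945 (647 to 1582 and 582 to 1381). In whole embryos fewer cells of a type and less RNA per cell cannot be told apart, and the part of neural tissue content in the Pax6 values was not tested.

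Pax2 and Pax8, the pair of the midbrain-hindbrain and kidney, did not pass in any of these fits. Pax2 ran from 2.52 to 31.9 with a median of 15.4 in normal and from 7.43 to 33.6 with a median of 19.6 in diabetic embryos with 5–6 somite pairs, and the fold change on the log2 scale was 0.34 ± 0.21 (adjusted p = 0.35). The medians at 7–9 were 15.3 and 17.3 and the log2 fold change -0.04 ± 0.19, with an interval of -0.44 to 0.35 (adjusted p = 0.90). Pax8 did not pass the filter per stage, and its medians in normal and diabetic embryos were 6.18 and 5.56 with 5–6 somite pairs and 10.8 and 8.37 with 7–9. Without the filter its log2 fold changes were 0.26 (adjusted p = 0.61) and -0.12 (adjusted p = 0.79). Over both stages its log2 fold change was 0.07 ± 0.17 (interval -0.27 to 0.41, adjusted p = 0.86).

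Pax9, of the pharyngeal pouches and sclerotome, ran from 15.99 to 42.03 with a median of 26.97 in normal and from 8.21 to 40.8 with a median of 18.9 in diabetic embryos with 5–6 somite pairs. The log2 fold change was -0.38 ± 0.19 (unadjusted p = 0.046, adjusted p = 0.23). In embryos with 7–9 pairs the medians were 22.1 and 13.1 and the log2 fold change was -0.20 ± 0.24 (adjusted p = 0.60). With a litter left out it was -0.59 to -0.11 (adjusted p = 0.15 to 0.81), and the -0.59 was that without D24M15. Over both stages the value was -0.30 ± 0.15 (adjusted p = 0.25), and without D24M15 it was -0.53 and passed (adjusted p = 0.040). Over the 22 litters left out in turn it was -0.53 to -0.24 (adjusted p = 0.040 to 0.43).

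Pax1, the other sclerotome gene, had medians of 3.71 in normal and 1.76 in diabetic embryos at 5–6 and of 7.11 and 8.55 at 7–9 somite pairs, and was listed at 0 in 3 diabetic embryos. Without the filter, its log2 fold changes were -0.33 (adjusted p = 0.65) and -0.04 (adjusted p = 0.99).

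**Figure D3:**
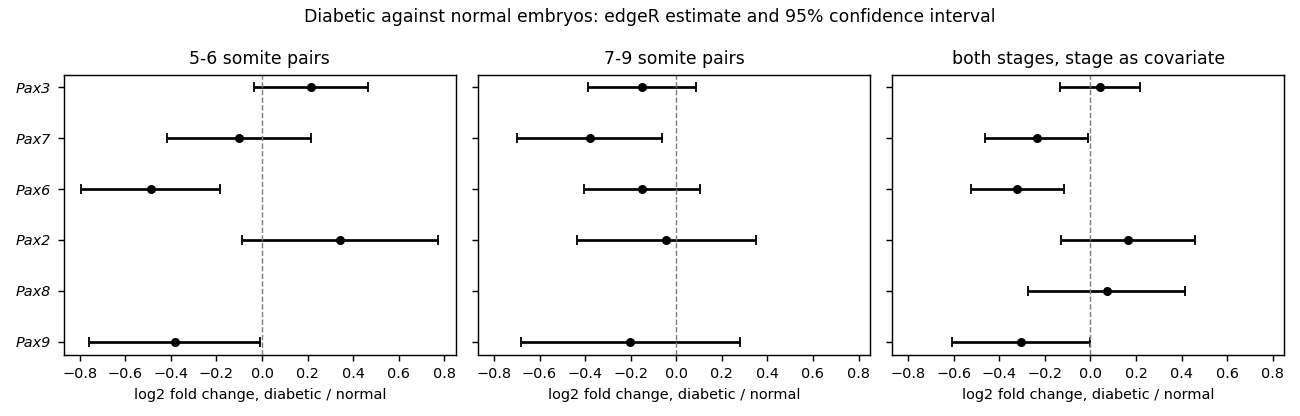
Log2 fold change of diabetic over normal embryos for the members that passed the filter, at 5–6 somite pairs, at 7–9 and over both, as edgeR estimates (dots) with 95% confidence intervals (bars). Intervals of Pax6 end below 0 at 5–6 somite pairs and over both stages, and that of Pax7 at 7–9, while the adjusted p of each was above 0.05.

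The depth sets how finely these genes can be compared. With a mean of 114 to 146 counts per embryo in a group, counting alone gives Pax3 a coefficient of variation of 8.3% to 9.4%, and embryos of one group varied by 21.9% to 25.02%. For Pax6, counting gives 7.9% to 10.1%, against 20.2% to 33.8% observed. For Pax8 the counting part was 31.05% to 37.96% of an observed 44.6% to 57.2%, and for Pax1 34.6% to 48.6% of 51.5% to 97.3%.

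Because the litter is the unit exposed, litter means of log2(normalized count + 1) were compared with a two-sided exact permutation test, unadjusted, for 7 genes at 2 stages (14 tests). At 5–6 somite pairs, with 10 normal and 9 diabetic litters, no member had a p under 0.05, against 10.3% of the 11304 genes tested over the embryos. Pax3 differed by 0.14 (exact permutation p = 0.47), Pax6 by -0.26 (exact permutation p = 0.19) and Pax9, the member with the lowest p, by -0.49 (exact permutation p = 0.098).

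In the later group, with 7 normal and 6 diabetic litters, 3 of 7 members did, against 19.4% of the 11304 genes. Pax3 was 110 to 171 normalized counts over the normal litters with a median of 132 (geometric means of a litter), and 90.9 to 133 with a median of 104 over the diabetic litters. The difference was -0.33 on the log2 scale (exact permutation p = 0.039), and 5 of 6 diabetic litters were below the median of the normal litters. The highest normal litters, N28M30 (171) and N24M29 (167), held 1 embryo each at this stage, as did the diabetic litters D23M26 and D28M24. Pax6 was 147 to 195 over the normal litters, with a median of 158, and 104 to 156 over the diabetic litters, with a median of 135. Its difference was -0.32 (exact permutation p = 0.0070), with 6 of 6 diabetic litters below the normal median. For Pax7 the normal litters were 31.3 to 57.1 with a median of 40.9, and the diabetic litters 22.4 to 38.1 with a median of 27.98. The difference was -0.51 (exact permutation p = 0.020), again with 6 of 6 diabetic litters below the normal median.

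Among litter means each litter counts once, whereas D24M15 stands for 7 of the 16 diabetic embryos in the test over embryos. When the counts of a litter were summed and tested by edgeR across all genes, the log2 fold changes at 7–9 somite pairs were -0.28 for Pax3 (adjusted p = 0.28), -0.25 for Pax6 (adjusted p = 0.31) and -0.41 for Pax7 (adjusted p = 0.22), and none passed, where 0.0663% of 12064 genes did.

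Markers of other tissues were read at the same 7–9 somite pairs. Of the 5 heart markers, 3 rose in diabetic embryos, where 553 of 10628 genes rose. Myl7 rose by 0.69 ± 0.12, Actc1 by 0.39 ± 0.09 and Myl4 by 0.38 ± 0.10 (adjusted p = 0.00070, 0.0074 and 0.019). With the litter as a random effect Myl7 and Actc1 passed and Myl4 did not (adjusted p = 0.0088, 0.037 and 0.068). With litter sums 0 of these 3 passed (adjusted p = 0.0505, 0.0705 and 0.11). The summed heart level ran from 1252 to 2296 with a median of 1816 in normal and from 1913 to 3187 with a median of 2405 in diabetic embryos. Primitive erythroid markers had a median log2 fold change of 1.23 (3 of 5 tested, 0 passed), and their summed level ran from 21.03 to 1691 in normal and from 39.3 to 5046 in diabetic embryos. For the visceral endoderm markers the median was 0.52 (8 of 10 tested, 0 passed), with sums of 104 to 1554 and 151 to 3622. No marker of these 3 lists was at 0 over a whole group. The part of tissue composition in the Pax3, Pax6 and Pax7 values was not tested.

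Maternal glucose was also set against Pax3 within the diabetic litters, using the litter mean of the deviation from the diabetic embryos of the same stage. Over the 11 litters with a glucose value, Pearson's r was -0.51 (permutation p = 0.10) and Spearman's rho -0.63 (permutation p = 0.043). Adjusted over these 2 coefficients, the p-values were 0.10 and 0.086. The 2 litters farthest from the median glucose were the 2 with the lowest glucose, 423 and 449 mg/dl, and both had Pax3 below the mean of their stage (-0.11 and -0.24), against the direction of the correlation. Without them r was -0.92 (9 litters), so that the strength of the relation rests on whether they are included. The highest Pax3 belonged to the litter at 461 mg/dl, with a deviation of 0.38, and the lowest of the 11 to the litter at 568 mg/dl, with -0.32. The litter whose glucose was given as a lower bound, with a single embryo, had -0.74 and was not in the correlation. The litters come with 3 different numbers in their titles, and within the 7 litters of the number 28 r was -0.67 (exact permutation p = 0.097).

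**Figure D4:**
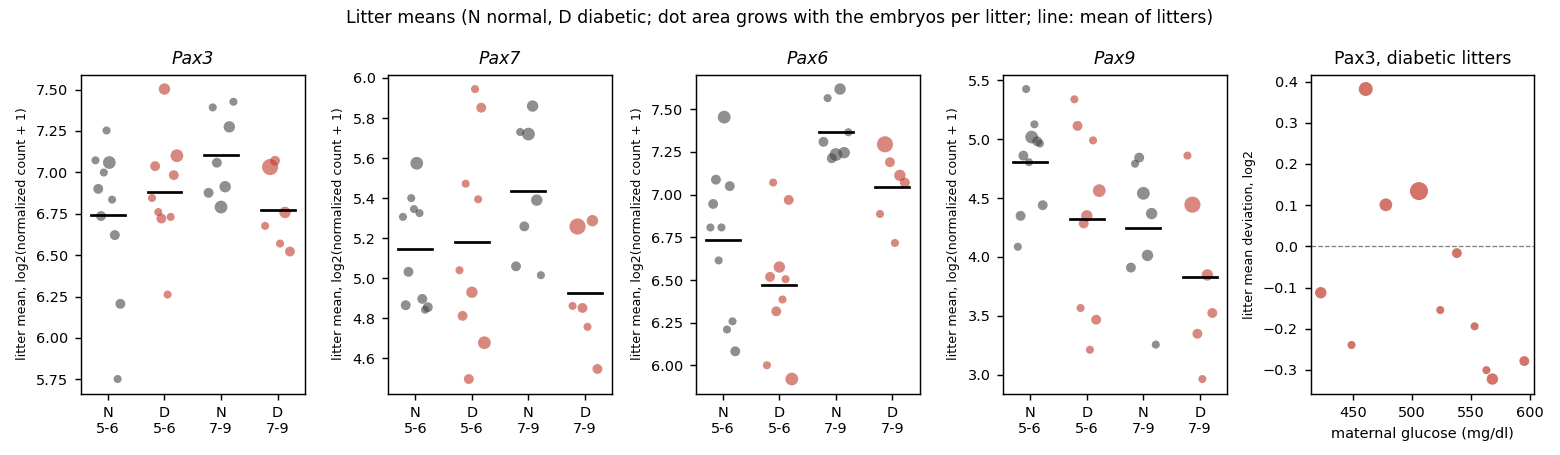
Litter means of log2(normalized count + 1) for Pax3, Pax7, Pax6 and Pax9 (N normal, D diabetic, at 5–6 and 7–9 somite pairs), with dot area growing with the embryos of a litter and lines at the mean of litters, and at right the Pax3 deviation of 11 diabetic litters against maternal glucose. At 7–9 somite pairs all 6 diabetic litters lie below the normal median for Pax6 and Pax7, and 5 of 6 for Pax3.

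How the genes moved with developmental stage was asked within each condition. From 5–6 to 7–9 somite pairs, 15.1% of 10696 genes changed in normal embryos and 29.2% of 10711 in diabetic embryos. Pax6 rose in both, by 0.41 ± 0.13 on the log2 scale in normal embryos (adjusted p = 0.032) and by 0.77 ± 0.14 in diabetic embryos (adjusted p = 0.00018). Pax9 fell in normal embryos, by 0.49 ± 0.17 on the log2 scale (adjusted p = 0.049), and in diabetic embryos its value was -0.29 ± 0.25 (adjusted p = 0.39). Without the filter on low counts, neither change in normal embryos passed (adjusted p = 0.078 for Pax6 and 0.079 for Pax9).

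Pax3 had a log2 fold change between the stages of 0.23 ± 0.12 in normal embryos (adjusted p = 0.19) and of -0.11 ± 0.12 in diabetic embryos (adjusted p = 0.49). For Pax7 the values were 0.32 ± 0.13 (adjusted p = 0.091) and 0.06 ± 0.18 (adjusted p = 0.83), and for Pax2 0.18 ± 0.23 and -0.19 ± 0.18. These 3 genes did not pass in either condition.

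Counted somite pairs give a finer scale than the 2 stages. With the condition as a covariate, 25.3% of 11304 genes changed per somite pair, and 2 of 6 members did, Pax6 and Pax8. Pax6 rose by 0.20 ± 0.04 per somite pair (adjusted p = 2.2e-05). Its mean was 99.9 ± 36.4 normalized counts (SD, n = 24) at 5 somite pairs, 118 ± 40.1 (n = 10) at 6, 151 ± 37.5 (n = 11) at 7, 159 ± 53.6 (n = 13) at 8 and 160 ± 32.0 (n = 8) at 9. The means at 7, 8 and 9 somite pairs differed by less than 1 SD.

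Pax8 rose by 0.28 ± 0.06 per somite pair (adjusted p = 0.00022). Its mean went from 5.92 ± 3.46 at 5 somite pairs over 6.68 ± 2.91, 8.39 ± 3.18 and 10.1 ± 5.18 to 13.1 ± 5.49 at 9. Pax3 was 119 ± 29.6 at 5 and 132 ± 33.8 at 9 somite pairs, a slope of 0.03 ± 0.03 with an interval of -0.03 to 0.09 (adjusted p = 0.46). Pax9 was 23.4 ± 10.2 at 5 and 15.6 ± 6.10 at 9, a slope of -0.13 ± 0.05 (adjusted p = 0.071), which passed with the litter as a random effect (adjusted p = 0.017). Pax7 had a slope of 0.08 ± 0.04 (adjusted p = 0.12) and Pax2 of -0.02 ± 0.05 (adjusted p = 0.80). Pax1, in the fit without the filter on low counts, had a slope of 0.40 (adjusted p = 0.00046), where 8.95% of 29711 genes passed. Its mean was 2.92 ± 2.64 at 5 and 9.46 ± 5.99 at 9 somite pairs.

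**Figure D5:**
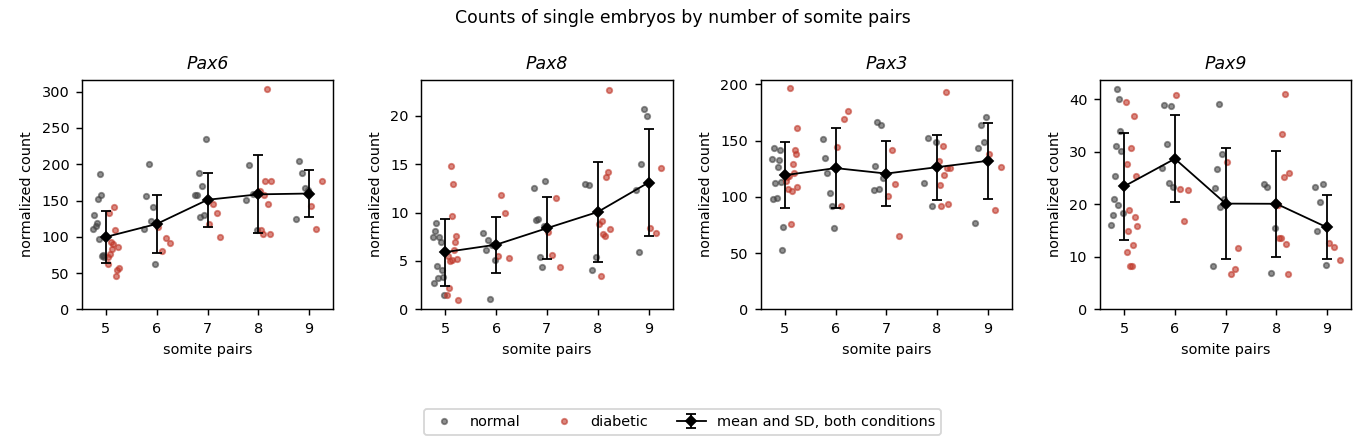
Normalized counts of Pax6, Pax8, Pax3 and Pax9 in single embryos against the number of somite pairs (normal grey, diabetic red), with the mean and SD of both conditions in black. Mean Pax6 goes from 99.9 at 5 to 160 at 9 somite pairs and mean Pax8 from 5.92 to 13.1, while mean Pax3 stays between 119 and 132.

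Pax6 and Pax8 were the members that rose with somite number in the fit with the filter. They are shown with the 250 bases before their transcription start, from RefSeq on GRCm38.p6. The window of Pax6 is chr2:105668646-105668895 on the plus strand, before the more upstream of its 2 listed starts, and that of Pax8 is chr2:24475600-24475849 on the minus strand. No annotated exon lies in either window. Both are given 5′ to 3′ on the strand of the gene, with CCAAT and GGGCGG in capitals wherever these letters occur on either strand, so that CCGCCC marks a GGGCGG of the other strand.
Pax6: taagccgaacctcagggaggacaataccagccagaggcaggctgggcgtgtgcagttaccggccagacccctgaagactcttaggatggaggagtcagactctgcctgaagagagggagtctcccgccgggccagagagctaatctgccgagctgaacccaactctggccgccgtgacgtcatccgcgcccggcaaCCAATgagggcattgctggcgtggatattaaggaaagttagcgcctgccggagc
Pax8: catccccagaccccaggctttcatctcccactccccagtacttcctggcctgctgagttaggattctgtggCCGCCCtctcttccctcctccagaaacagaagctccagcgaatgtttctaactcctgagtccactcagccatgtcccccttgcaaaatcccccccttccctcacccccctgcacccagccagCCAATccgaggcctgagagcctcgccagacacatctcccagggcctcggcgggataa
The letters TATAAA and TAATTA were searched for as well and are in neither window. CCAAT is in both windows and in 33.8% of the 32851 promoter windows of this length, and GGGCGG is in that of Pax8 only and in 32.7% of all windows. TATAAA is in 12.4% and TAATTA in 4.84% of all windows. The window of Pax6 holds 15 CG steps and that of Pax8 6, where the median of all windows is 6. These matches describe the letters and are not evidence of a bound factor. Of the other members, Pax1, Pax2, Pax7 and Pax9 have an entry in the same table.

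Among genes of the same regions, chosen as lists around the roles of the Pax genes, at most 2 of any list passed between diabetic and normal embryos at a stage. In the list of 16 dorsal neural tube and neural crest genes, 0 of 15 tested passed at 5–6 somite pairs, with a median log2 fold change of 0.05 against 0.0038 over all genes. At 7–9 somite pairs Sox10, a neural crest regulator, rose by 0.57 ± 0.16 (adjusted p = 0.026). It did not pass without D24M15 or without N28M03, with the litter as a random effect (adjusted p = 0.093) or with litter sums (adjusted p = 0.15), nor with all 8 groups in a single fit.

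Of 14 genes known to regulate Pax3 or to belong to the p53 pathway, 2 rose at 5–6 somite pairs, where 1.46% of all genes passed and 0.591% rose. Cdkn1a, a cell cycle inhibitor that p53 induces, was at 28.5 ± 14.6 normalized counts in normal and 47.2 ± 11.8 in diabetic embryos (SD, n = 17 each), a rise of 0.76 ± 0.18 (adjusted p = 0.027) that missed the threshold in 8 of 30 alternatives, among them the litter as a random effect (adjusted p = 0.10) and litter sums (adjusted p = 0.32). Trp53, which encodes p53, was at 55.0 ± 27.8 and 87.8 ± 32.5, a rise of 0.68 ± 0.18 (adjusted p = 0.046), and missed the threshold in 16 of 30 alternatives. With the litter as a random effect its adjusted p was 0.18 and with litter sums 0.41. Neither call held when the litter was modelled, but at this stage these models called almost no gene. With the litter as a random effect 4 of 11004 genes passed and with litter sums 0 of 11706, so a miss there does not tell these 2 genes from others. Pax3 protein is known to restrain p53. Pax3 RNA had the log2 fold change of 0.21 given above at this stage and did not pass (adjusted p = 0.31). Protein was not measured, and a link of Pax3 to the Trp53 and Cdkn1a values was not tested.

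In older embryos, where 3.89% of all genes fell, the same list had 2 members that fell, Tead1, of the TEAD family that binds a Pax3 enhancer, with -0.46 ± 0.09 (adjusted p = 0.0015), and Meis2, a homeodomain cofactor, with -0.23 ± 0.07 (adjusted p = 0.034). Tead1 passed with the litter as a random effect (adjusted p = 0.013) and missed the threshold in 1 of 24 alternatives, litter sums (adjusted p = 0.056). Meis2 missed it in 11, among them both litter models (adjusted p = 0.093 and 0.20) and the fit without D24M15. Over both stages Cdkn1a rose by 0.57 ± 0.12 (adjusted p = 0.0016) and Mdm2, which targets p53 for degradation, fell by 0.29 ± 0.06 (adjusted p = 0.0030). Both passed in all 33 alternatives. Mdm2 did not pass at 5–6 somite pairs (-0.33, adjusted p = 0.056) or at 7–9 (-0.24, adjusted p = 0.074). Trp53 did not keep its rise. At 7–9 somite pairs it was at -0.498 ± 0.189 and did not pass (adjusted p = 0.086). Its interaction of stage and condition passed, with -1.16 on the log2 scale (adjusted p = 0.0084). Over both stages Trp53 did not pass, with 0.11 ± 0.15 (adjusted p = 0.72). Whether p53 was more active was not tested.

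In the list of 12 eye and forebrain genes, 0 of 9 tested passed at either stage, with a median log2 fold change of -0.26 at 5–6 somite pairs, the stage at which Pax6 was at -0.49. Over both stages Sox2, a neural progenitor factor, fell by 0.23 ± 0.06 (adjusted p = 0.025) and missed the threshold in 10 of 33 alternatives, among them the litter as a random effect (adjusted p = 0.10) and litter sums (adjusted p = 0.19). No somite and myogenic gene passed at any stage (11 of 19 tested at 5–6 and 12 of 19 at 7–9 somite pairs), and none of the midbrain-hindbrain, otic or ventral neural tube genes did. Hhex, a factor of thyroid and foregut endoderm, was the one gene of 7 tested in the intermediate mesoderm, thyroid and pharyngeal list that passed at 5–6 somite pairs, with -0.58 ± 0.13 (adjusted p = 0.023). It missed the threshold in 5 of 30 alternatives, with the litter as a random effect (adjusted p = 0.11) and with litter sums (adjusted p = 0.32) among them. Those 2 litter models called 4 of 11004 and 0 of 11706 genes at this stage.

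With somite number, 12.4% of all genes rose and 12.9% fell. In the dorsal neural tube and neural crest list 4 of 15 genes rose, among them Zic1 by 0.53 ± 0.06 per somite pair (adjusted p = 2.8e-09), Tfap2b by 0.37 ± 0.05 and Sox10 by 0.36 ± 0.06, and Foxd3 and Wnt3a were among those that fell. In the somite and myogenic list 6 of 12 rose, led by Uncx, a factor of the posterior side of the somite, by 0.42 ± 0.07 and Tcf15 by 0.26 ± 0.07, and Met fell. In the eye and forebrain list Emx2 rose by 0.20 ± 0.04, close to the slope of Pax6, and Sox2 fell.

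Lastly, each tested member was set against all 11304 genes over the 66 embryos, after the mean of each group had been subtracted, and the genes with the highest Pearson correlation were listed. These are descriptions over embryos that share litters, and counting noise lowers the correlation of sparse genes. For Pax3 the nearest genes included Ikzf2 (r = 0.67), Sox11 (0.64), Nsd2 (0.64) and Hspa4l (0.63). For Pax6 they were Pou3f2 (0.71), Mir124-2hg (0.68) and Rfx4 (0.67), and for Pax7 Sox3 (0.68), Lhx2 (0.60) and Sox1 (0.59). Pou3f2, Rfx4, Sox3, Lhx2 and Sox1 are known as genes of neural progenitors. For Pax2 the nearest were Rexo1 (0.68), Scaf4 (0.66) and Ildr2 (0.65), for Pax9 Phrf1 (0.65), Fst (0.62) and Mex3a (0.62), and for the sparse Pax8 Zic1 (0.49), Col5a2 (0.49) and Adgrv1 (0.48).

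Among the members themselves Pax6 went with Pax7 (r = 0.55) and with Pax3 (r = 0.50). Pax3 and Pax7, the 2 members of one subgroup, had r = 0.31. Pax2 and Pax8, the other subgroup pair with enough counts, had -0.13, and Pax9 was at 0.24 or below with every other member.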

How the data were processed

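3′ tag libraries (QuantSeq FWD, with molecular identifiers) were made from total RNA of NOD embryos and yolk sacs at E8.5 and run on a NextSeq instrument. The submitters' processing notes name STAR, HTSeq and mm10, and reads were collapsed by molecular identifier before counting. For program versions and annotation, the sources used here give nothing. The deposited values are raw counts of molecules per gene, without normalization by the authors. Of 136 libraries, 4 repeat runs were left out and 132 were used. Groups came from the labels for tissue, condition and somite number.

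Fits used edgeR 4.0.16 (quasi-likelihood test, TMM scaling, filterByExpr with a minimum count of 10) over all genes, with Benjamini-Hochberg adjustment and a call at an adjusted p under 0.05. Levels are counts divided by DESeq2 1.42.0 size factors over the 66 libraries of a tissue. Litter effects were fitted with limma 3.58.1, and the exact test on litter means was also run on all 11304 genes for comparison. The p for glucose used 100000 resamples. Alternatives were DESeq2, RLE scaling, other filters, covariates for somites and sex or title number, litters as block or sums, and leaving out each litter. The edgeR fits were tested on simulated data in which all embryos were independent, so that test does not cover the sharing of litters.

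The members and gene lists were chosen with earlier results of these data known. The genes named are the 7 members, of each list those called (up to 5 per direction), and the nearest genes by correlation (5 for Pax3, 3 for the others). Named genes of the lists under somite number are the leading ones of these. Some genes that this rule names are not reported here. Symbols missing from the table were taken from GENCODE (25646 of 26051). Embryo and yolk sac were paired by their conceptus label, with a median correlation of their deviations of 0.13 (34 pairs) and 0.062 (32 pairs). The 2 pairs that differ in sex were included.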

Additional observations from a re-analysis of the deposited data

How the results depend on the processing

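The members called between diabetic and normal embryos at 5–6 somite pairs were 0 in the main fit and 1 (Pax6) with DESeq2 and with all 8 groups in a single fit, and 0 to 1 when each litter was left out in turn. Over both stages they were 0, and 1 (Pax6) with DESeq2, without the filter on low counts, with the title number as a covariate and with all 8 groups, and 0 to 2 when a litter was left out (Pax6 in 6 of 22 and Pax9 in 1). At 7–9 somite pairs they were 0 under every alternative, including the 13 litters left out. For Pax3 over both stages the log2 fold change of 0.04 turned to -0.047 with counts summed per litter, and lay between -0.036 and 0.074 with a litter left out, below 0 without D28M23. It was 0.09 to 0.30 at 5–6 and -0.28 to -0.09 at 7–9 somite pairs with a litter left out, and never passed.

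Signs turned for members near 0. Pax7 at 5–6 somite pairs was 0.062 with litter sums and -0.25 to 0.046 with a litter left out, above 0 without D28M53 and without N28M06. Pax2 at 7–9 was 0.016 with the litter as a random effect, 0.073 with the title number and -0.11 to 0.085 with a litter left out, above 0 in 4 of 13 cases. In fits without the filter, Pax1 at 7–9 was 0.012 with litter sums, Pax8 at 7–9 was -0.22 to 0.018 with a litter left out, above 0 without D24M15, and Pax3 in yolk sacs at 7–9 was 0.014 with all 8 groups. The cause was not tested. Between stages in normal embryos the members called were 2, and 1 with RLE scaling or without the filter, and in diabetic embryos 1, and 2 without the filter. Per somite pair they were 2, and 1 with a filter on a mean count of 10, which leaves Pax8 untested, and 3 without the filter or with the litter as a random effect. Between embryo and yolk sac they were 5 at both stages, 7 without the filter, and 3 at 7–9 with the filter on a mean of 10. With the conceptus as a replicate block, Pax3 was 5.11 and 5.36, and the block, which pairs embryo and yolk sac, changed no call there. No paired analysis was possible between diabetic and normal because concepti of the 2 conditions share no dam. The litter results kept their side of 0.05 under all 42 alternatives, and the correlation with glucose was -0.67 within the number 28, an alternative chosen after seeing the data.

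Low counts limit Pax1 and Pax8, and the 6 diabetic litters at 7–9 somite pairs limit the litter tests. Replicates are single concepti, and p-values over embryos treat littermates as independent. The litter correlation of the fit was 0.25 at 5–6 and 0.13 at 7–9 somite pairs.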
